A study of Mus musculus with 12 samples.

Results

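Klk8 and Lrg1 were the 2 genes examined, of 18193 genes with a single symbol on the arrays and 10269 that passed the filter on low signals. They were selected on their measured signals on these arrays, as genes low under both exposures to tumour necrosis factor (TNF), an inflammatory cytokine that activates endothelium. Their differences from control are therefore descriptions without a test. The array held 1 probe set for each gene (1419722_at for Klk8, 1417290_at for Lrg1), and both passed the filter, which asked for a signal of at least 100 on at least 4 arrays. Both passed through the control arrays, where all 4 reached 100 for either gene. The label of low signals under both exposures held on every array for Klk8. For Lrg1 it held for the group means but not for every array.

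The study profiled endothelial cells grown from wild-type newborn mice, with 3 groups of 4 arrays. The control cells were mock-transfected. The tmTNF cells were stably transfected with a murine TNF mutant that cannot be cleaved from the membrane, a constant exposure. The soluble TNF cells received the cytokine at 20 ng/ml for 4 h, a transient exposure. Every group was grown in the same supplemented medium with serum, and about 5 µg of total RNA went onto each array. The promoter that drives tmTNF and the number of clones are not given in the sources used here, and neither is whether replicates were separate cultures or animals. What the spread between arrays represents is therefore not known. It included differences in cell type markers within each group, given below.

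Klk8, also called neuropsin, is a secreted serine protease of the kallikrein family. It is made as an inactive precursor and is known mainly from the hippocampus and the epidermis. There it cuts surface and matrix proteins such as L1cam, neuregulin and fibronectin. Lrg1, leucine-rich alpha-2-glycoprotein 1, is a secreted glycoprotein of plasma. Liver makes it in the acute phase response downstream of interleukin 6 and STAT3, and neutrophils store it. In endothelium it binds the TGF-beta co-receptor endoglin and shifts TGF-beta signalling toward the receptor Acvrl1 and Smad1, which favours vessel growth.

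The windows around the annotated starts of both genes are shown because the genes share a group pattern and differ in start region. Each runs from 250 bases before to 50 bases from the start, read 5′ to 3′ on the gene's strand, from RefSeq on GRCm38.p6. The Klk8 window is chr7:43797327-43797626 on the plus strand, and the Lrg1 window is chr17:56121897-56122196 on the minus strand. Capitals mark the letters of a GC box (GGGCGG) in Klk8 and of a TATA box (TATAAA) in Lrg1, searched on both strands.
Klk8: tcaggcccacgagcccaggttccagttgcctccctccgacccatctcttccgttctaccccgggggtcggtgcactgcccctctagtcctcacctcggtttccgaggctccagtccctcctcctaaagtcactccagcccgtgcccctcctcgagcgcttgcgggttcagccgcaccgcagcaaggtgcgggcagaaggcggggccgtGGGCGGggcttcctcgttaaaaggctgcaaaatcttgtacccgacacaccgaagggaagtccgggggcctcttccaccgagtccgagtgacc
Lrg1: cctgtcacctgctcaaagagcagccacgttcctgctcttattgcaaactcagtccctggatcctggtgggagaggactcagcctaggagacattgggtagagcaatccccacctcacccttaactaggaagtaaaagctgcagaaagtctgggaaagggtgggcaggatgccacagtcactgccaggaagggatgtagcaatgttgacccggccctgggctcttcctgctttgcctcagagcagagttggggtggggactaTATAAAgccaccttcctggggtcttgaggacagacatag

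The 2 windows differed in base composition. Klk8 had 23 CpG dinucleotides and 65.3% G or C, and 78.5% of the 32851 promoter windows in the RefSeq table had fewer CpGs. Lrg1 had 2 CpGs and 54.7% G or C, and 14.1% of windows had fewer CpGs. The median window had 7 CpGs and 52.7% G or C. The GC box began 42 bases before the Klk8 start, and GGGCGG was present in 35.7% of all windows. The letters TATAAA began at base 12 counted from the Lrg1 start as base 1, and were present in 13.6% of windows. They lie downstream of the annotated start, so they are a match of letters only. Both of these motifs were added after the windows had been seen. Motifs of factors that act in TNF and interleukin 6 responses were also searched on both strands. These were the NF-kB motif, the STAT motif TTCNNNGAA, the AP-1 motif TGANTCA, the C/EBP motif TTGCNNAA and the core of the interferon-stimulated response element. None of their letters occurred in either window. Across all windows they were present in 4.51%, 8.3%, 7.81%, 10.8% and 3.44%, in that order. The start positions are those of the annotation, since the arrays do not measure where transcription begins.

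The arrays were of similar depth, with 17652 to 19174 probe sets at a signal of 100 or above. Tnf, the transfected gene, stayed at 77.2 or below on all arrays, and whether its probe set covers the transfected construct is not given in the sources used here. The Y-linked genes Eif2s3y, Kdm5d and Uty gave at least 129.1 on every tmTNF array and at most 37.9 on every other array. A difference of tmTNF cells from another group therefore ran alongside this one, and the 2 cannot be told apart. All 19 endothelial markers passed the filter, with summed signals of 22345 to 177499 in control, 29932 to 188070 in tmTNF and 48825 to 126157 in soluble TNF arrays. The sums were lowest on control array 3 (22345), tmTNF array 2 (29932) and tmTNF array 4 (32072), followed by soluble TNF arrays 1 (48825) and 4 (64800). These 3 lowest arrays were among the 3 dimmest of the 12 for 18, 16 and 14 of the 19 markers, and soluble TNF array 1 for 5, so the arrays graded into each other.

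Markers of other cell types also varied between arrays, within groups and between them. Of the 15 epithelial and keratinocyte markers on the array 4 passed the filter, with summed signals of 765 to 9447 in control, 978 to 30912 in tmTNF and 10832 to 22159 in soluble TNF arrays. Sprr1a, a protein of the keratinocyte envelope, was at 42.6 to 2115.4 in control and 8191.5 to 21167.2 in soluble TNF arrays. Cdh1, Krt5 and Krt14 stayed under 100 on all arrays. Krt19, a keratin of epithelium and mesothelium, was at 7119.8, 11494.3 and 5563.7 on the 3 arrays of lowest endothelial sums and at 3244.0 and 2801.0 on soluble TNF arrays 1 and 4. Of the 10 mesothelial markers 3 passed the filter, with summed signals of 2649 to 10790, 5183 to 14837 and 2752 to 5400 in the 3 groups in the same order. These 3 did not vary together, so the sums mix opposite patterns. On control arrays 2 and 3 Msln was at 53.5 and 3412.0 and Krt19 at 216.8 and 7119.8. Cldn15 was at 8462.2 and 179.4 on the same arrays.

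Of the 12 fibroblast markers 6 passed the filter, with summed signals of 388 to 10454 in control, 514 to 8573 in tmTNF and 539 to 8506 in soluble TNF arrays. Col3a1, a fibrillar collagen, was at 4546.6 and 1900.9 on control arrays 3 and 4 and at 4119.1 and 3758.3 on soluble TNF arrays 1 and 4, against 1.6 to 158.8 on the others. Dcn, a matrix proteoglycan, was at 3276.5 and 7270.8 on tmTNF arrays 2 and 4. Of the 15 leukocyte markers 5 passed the filter, with summed signals of 992 to 19173, 5434 to 7912 and 746 to 1532 in the 3 groups. Cd14 reached 5128.6 and S100a8 2910.0, while Ptprc, which all leukocytes carry, stayed at 38.8 or below. The part of these differences in the signals of Klk8 and Lrg1 was not tested, beyond leaving out arrays as given with the results. Because RNA was extracted from whole cultures, fewer cells that express a gene and less RNA per cell cannot be told apart.

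Klk8 was low on every exposed array. Its control signals were 2171.3, 602.6, 568.2 and 566.6 in replicates 1 to 4, in array units after each array was scaled to a common trimmed mean. With tmTNF they were 211.4, 51.1, 30.8 and 40.6. With soluble TNF they were 127.1, 130.4, 43.1 and 202.9. Control array 1 was far above the other 3 controls, those 3 were close together, and no exposed array reached the lowest control. On control array 1 the macrophage and lysosome marker Cd68 was at 18210.0, against 255.2 to 2284.9 on the other controls. Cd68 was also at 6727.6 on tmTNF array 1, which had the highest Klk8 of the exposed arrays (211.4). It was at 4295.2 on tmTNF array 3, which had the lowest Klk8 of all 12 (30.8). A link between the 2 genes was not tested. Klk8 was at 568.2 and 566.6 on control arrays 3 and 4, with bright Col3a1, and at 602.6 on control array 2, without it. A link between Klk8 and Col3a1 was not tested either.

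The mean Klk8 signal was 977.2 ± 796.2 in control, 83.5 ± 85.7 in tmTNF and 125.9 ± 65.3 in soluble TNF cells (SD, n = 4 each). On the scale of log2(signal + 16), the tmTNF mean minus the control mean was -3.37 ± 0.60 (SE), and the soluble TNF mean minus the control mean was -2.68 ± 0.60. These are 10.3-fold and 6.42-fold lower on that scale. With constants of 1 and 64 in place of 16 the values were -3.71 and -2.72 for tmTNF and -2.86 and -2.28 for soluble TNF. The groups did not overlap in either comparison. A lower, non-overlapping exposed group was present in 0.984% of genes for tmTNF and 4.44% for soluble TNF. The 2 comparisons share the control arrays, including control array 1.

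The low Klk8 signals were near the range of unmeasured probe sets. Among the tmTNF arrays 1 of 4 reached 100, and among the soluble TNF arrays 3 of 4 did. Relative to all probe sets of its array, Klk8 lay at percentiles 78 to 91.5 on control arrays and 35.6 to 66.9 on exposed arrays. No detection calls were used, so a signal of 100 stands in for the background limit. The folds above depend on how signals under that limit are treated and set no exact size.

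The distance between the groups was the most extreme feature of Klk8. Its lowest control signal, 566.6, was 2.68 times its highest exposed signal, 211.4. On the log2 scale this gap was 1.36, rank 1 of 10269 genes, and it was rank 1 under each of the 25 alternative settings. Klk8 was chosen for low exposed signals on these same arrays, which all settings reuse. The rank is therefore a description and no independent support. All 4 control arrays lay above all 8 exposed arrays in 15 genes, or 0.146%. The next widest gaps were those of Pqlc3 (0.27), Dnase1l1 (0.24), Tmem179b (0.20), Tor4a (0.12) and Slc22a17 (0.12). The gap did not rest on the brightest array, since it runs from the lowest control.

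**Figure D1:**
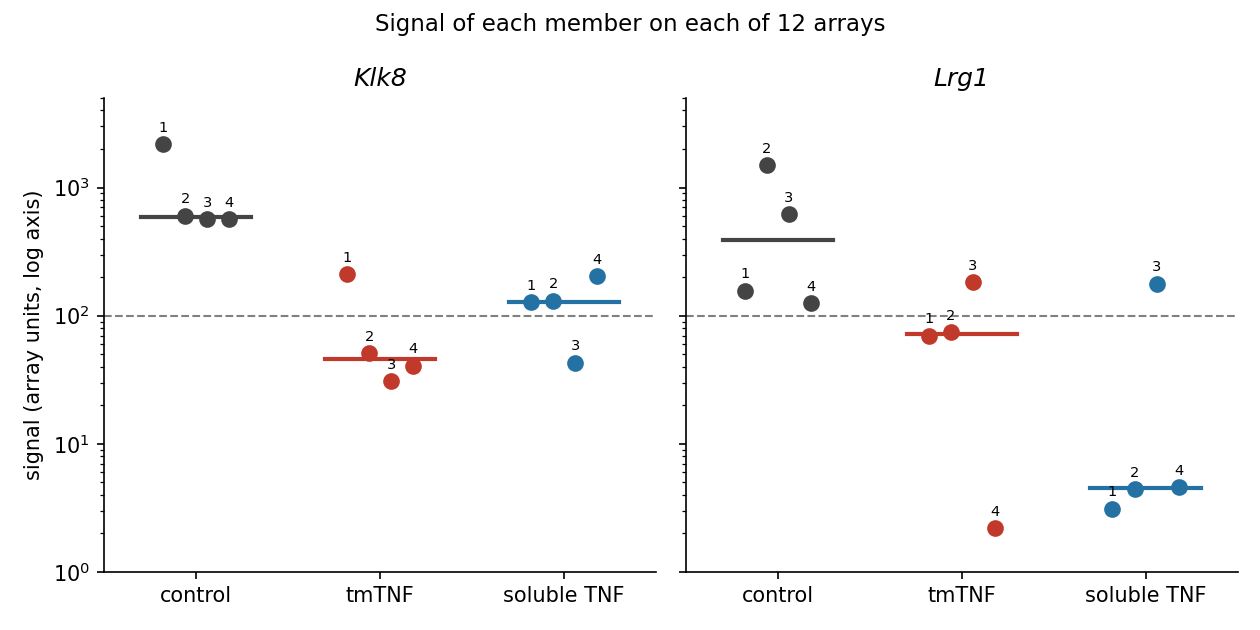
Signal of Klk8 (left) and Lrg1 (right) on each array (log axis, array units); points are the 4 replicates of a group, with replicate numbers, bars are group medians, and the dashed line is a signal of 100. Every exposed Klk8 array lies below the lowest control at 566.6, whereas the highest exposed Lrg1 array, at 182.3, lies above 2 of the 4 controls.

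**Figure D2:**
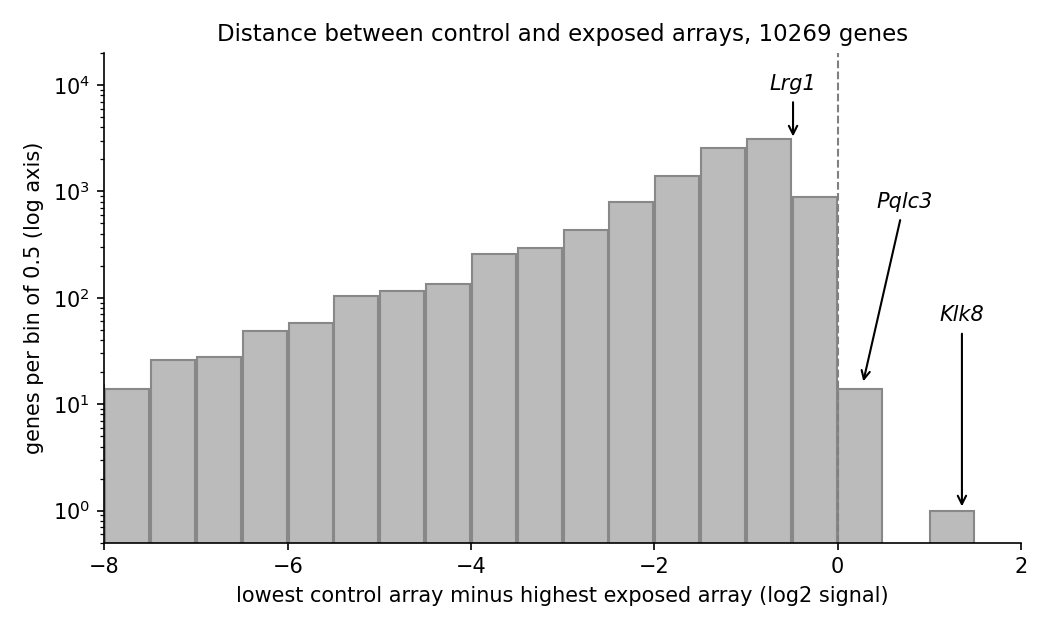
Number of genes by the distance between the lowest control and the highest exposed array (log2 signal, bins of 0.5, log axis for counts), shown from -8 to 2, which leaves out the 15 genes below. Klk8 is alone in its bin at 1.36, the second widest is Pqlc3 at 0.27, and Lrg1 lies at -0.49 among the genes whose groups overlap.

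Lrg1 was low in the means of both exposures and variable within every group. Its control signals were 157.2, 1491.8, 617.4 and 125.5 in replicates 1 to 4. With tmTNF they were 70.0, 74.3, 182.3 and 2.2, and with soluble TNF 3.1, 4.4, 178.0 and 4.6. Array 3 of either exposure was higher than control arrays 1 and 4, so the groups overlapped, and the other 6 of 8 exposed arrays lay below the lowest control. The 3 other soluble TNF arrays, at 3.1 to 4.6, were near the bottom of the scale, at percentiles 9.64 to 12.5 of all probe sets.

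The mean Lrg1 signal was 598.0 ± 636.8 in control, 82.2 ± 74.4 in tmTNF and 47.5 ± 87.0 in soluble TNF cells (SD, n = 4 each). The tmTNF mean minus the control mean was -2.43 ± 0.99 (SE, log2). The soluble TNF mean minus the control mean was -3.47 ± 0.99. The gap between its lowest control and highest exposed array was -0.49, the negative sign marking the overlap, and rank 836. Only 1 of 4 arrays in each exposed group reached 100. Because most exposed signals were under 100, the added constant set the size of the difference and no fold is given. With 1 in place of 16 the values were -3.13 for tmTNF and -4.92 for soluble TNF, and with 64 they were -1.80 and -2.30.

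The log2 differences of the 2 genes were also taken without the arrays of lowest endothelial markers. Without the 3 lowest the log2 difference of Klk8 was -3.16 with tmTNF and -2.85 with soluble TNF, close to the values over all arrays. That of Lrg1 was -3.24 with soluble TNF and -1.35 with tmTNF, against -2.43 over all arrays. The arrays left out included tmTNF array 4, where Lrg1 was at 2.2, so the tmTNF values rest on tmTNF arrays 1 and 3 alone. Whether the 2 genes differ in this was not tested. Leaving out soluble TNF array 1 as well gave -3.16 and -2.90 for Klk8 and -1.35 and -2.94 for Lrg1, with tmTNF and soluble TNF in that order.

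The 2 exposures were then compared with each other. The genes were chosen as low under both, which favours similar signals in the 2 exposures. A small difference here is therefore partly built into the choice. Klk8 was 0.69 ± 0.60 (log2, SE) lower in tmTNF than in soluble TNF cells, with a 95% interval from -1.99 to 0.61 (limma, adjusted p = 0.549). Lrg1 was 1.04 ± 0.99 higher, with an interval from -1.11 to 3.2 (limma, adjusted p = 0.588). Neither difference exceeded the spread between arrays, and both groups overlapped for each gene. Of all genes, 1.22% passed the threshold in this comparison. The intervals are wide, so the arrays leave room for differences of either sign.

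The brightest array of each group was not the same for the 2 genes. Control array 1 was the brightest array for Klk8 and only the third brightest control for Lrg1. The brightest Lrg1 array was control 2, where Klk8 was near the other controls. Soluble TNF array 3, where Lrg1 was high, had the lowest Klk8 signal of its group. By Pearson correlation over the 12 arrays, which share the group pattern, Lrg1 was number 1037 among the 10268 other genes ranked by likeness to Klk8. Klk8 was number 1682 in the ranking for Lrg1. Each was more like the other than most genes were. Both had been chosen as low under both exposures, so some likeness over these arrays is built into the choice.

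The genes most like Klk8 over the 12 arrays were Dpm1 (r = 0.90), Rab38 (0.89), Slc22a17 (0.88), Pqlc3 (0.88), Ubac2 (0.85) and Ebpl (0.85). Dpm1 encodes the catalytic subunit of dolichol-phosphate mannose synthase, and Rab38 a small GTPase of lysosome-related organelles. Their group differences were smaller than that of Klk8. Pqlc3, the largest among them, had control signals of 5969.1, 1171.2, 1331.5 and 2070.3, tmTNF signals of 650.8, 654.5, 357.3 and 769.0, and soluble TNF signals of 967.7, 908.7, 755.3 and 845.4. Its brightest array was also control 1. Over the 8 exposed arrays alone the correlation with Klk8 was 0.92 for Rab38 and 0.53 for Pqlc3. These values describe likeness in arrays that share their groups.

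The genes most like Lrg1 were Evi5 (r = 0.89), Txnip (0.89), Rnf157 (0.88), Gm45351 (0.87), Trim39 (0.87) and Rit1 (0.86). Txnip encodes an inhibitor of thioredoxin. Its control signals were 4747.2, 11132.1, 6925.6 and 4818.9, with control 2 brightest as for Lrg1. With tmTNF they were 4423.9, 7395.2, 4707.3 and 2164.9, and with soluble TNF 1834.8, 2257.2, 3739.5 and 3207.9. Array 3 of the soluble TNF group was again the highest of its group. These values too describe likeness and were not tested.

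Besides Klk8, 1 kallikrein gave signals of 100 or above. The array held 20 kallikrein genes with 24 probe sets, and 22 of the 23 probe sets of other genes stayed under 100 on every array. The exception, at or above 100 on all 12 arrays, was 1 of the 4 probe sets of Klk1, the tissue kallikrein, with signals of 144.9 to 272.1 in control, 169.9 to 459.9 in tmTNF and 184.4 to 227.0 in soluble TNF cells. Its 3 other probe sets stayed at 43.1 or below, so the Klk1 signal is uncertain. Among the proteases encoded next to Klk8, Klk9 was at most 72.9, Klk11 at most 61.4 and Klk10 at most 56.9. On the other side Klk7 was at most 59.5, Klk6 at most 39.1 and Klk5 at most 45.9. No neighbour reached 100 on any array, so a change among them could not be read.

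**Figure D3:**
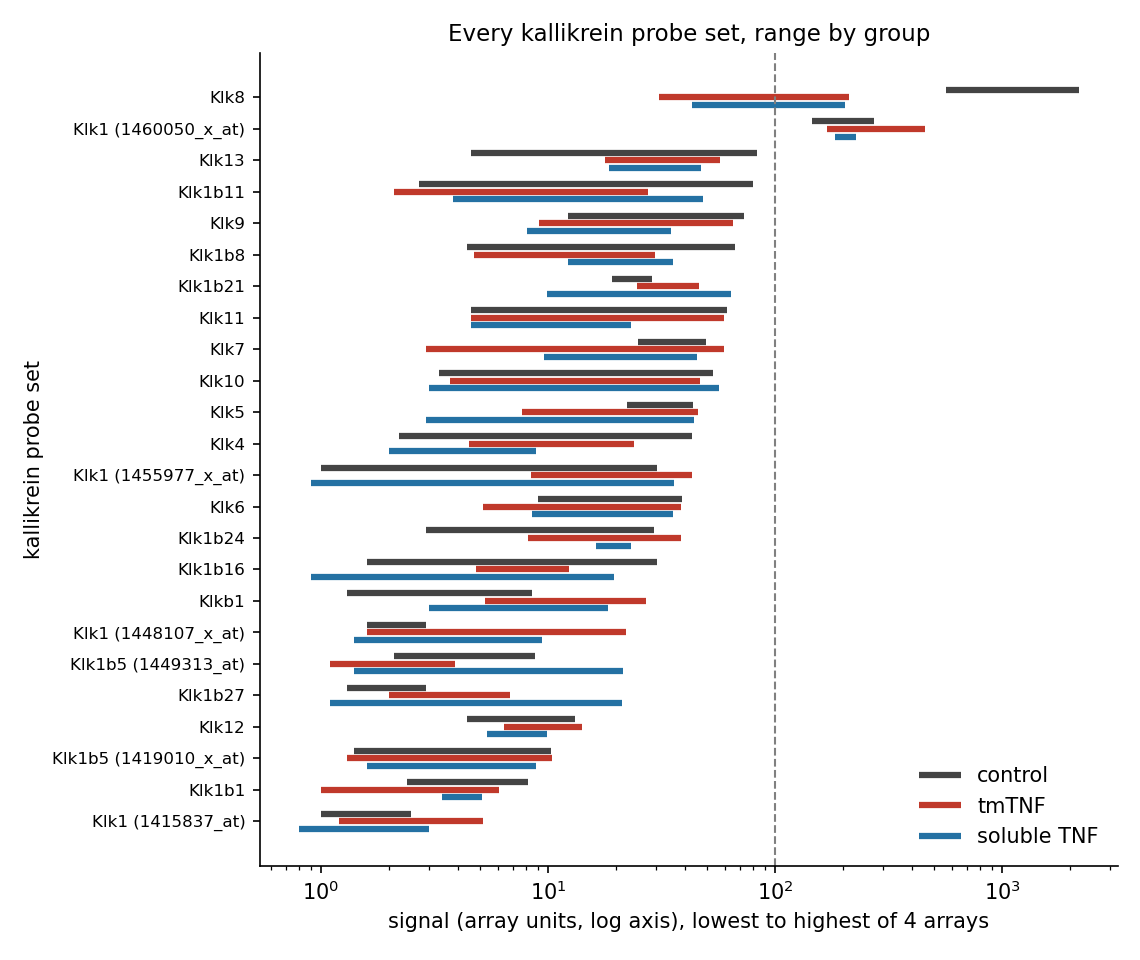
Range of signal from the lowest to the highest of 4 arrays for each kallikrein probe set in each group (log axis, array units), with a dashed line at 100. Klk8 in control cells, 566.6 to 2171.3, does not overlap Klk8 in either exposure, the ranges of the Klk1 probe set 1460050_x_at do overlap, and the 22 other probe sets lie under 100.

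Of the listed substrates and inhibitors of Klk8, 5 of 7 on the array passed the filter. None passed the threshold in either comparison with control (limma), against 0.195% of all genes for tmTNF and 0.0390% for soluble TNF. At an unadjusted p under 0.05 there were 0 for tmTNF and 2 for soluble TNF, against 7.56% and 12.7% of all genes. The median log2 difference was -0.63 for tmTNF and -0.07 for soluble TNF, against 0.03 and -0.05 over all genes. Leaving out 1 array moved the list medians to between -1.09 and -0.16 and between -0.27 and 0.16. L1cam, a neural adhesion molecule that Klk8 cuts, had control signals of 4044.5, 126.5, 41.3 and 157.2. Its bright array was control 1, the array that was also brightest for Klk8. On exposed arrays L1cam ranged from 41.5 to 137.0. Nrg1, neuregulin, was at 15.6 to 200.7 in control, 6.5 to 78.0 in tmTNF and 172.3 to 598.4 in soluble TNF cells. It was 1.86 ± 0.64 (SE, log2) above control with soluble TNF, and the tmTNF mean minus the soluble TNF mean was -2.64 ± 0.64, neither past the threshold (limma, adjusted p = 0.3 and 0.0661). Spink5, an inhibitor of epidermal kallikreins, stayed at 17.8 or below. Serpinb6a, a serpin that can inhibit Klk8, was bright on all arrays (9170.7 to 22336.0). Fn1, fibronectin, was 1.26 ± 0.70 (SE, log2) above control with tmTNF and 1.78 ± 0.70 with soluble TNF, neither past the threshold.

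The receptors through which Lrg1 acts in endothelium were well measured. Of the TGF-beta ligands, receptors and SMADs, 19 of 20 on the array passed the filter, and 0 passed the threshold in either exposure (limma). At an unadjusted p under 0.05 there were 5 of 19 for tmTNF and 4 of 19 for soluble TNF, against 7.56% and 12.7% of all genes. The median log2 difference was 0.39 for tmTNF and 0.14 for soluble TNF, and 0.08 to 0.48 and 0.02 to 0.35 with 1 array left out. Eng, which encodes endoglin, had control signals of 2453.1, 3280.1, 1713.3 and 4407.4. Exposed arrays ranged from 2042.4 to 3916.8, within the control range. Its log2 differences were 0.07 ± 0.30 and 0.14 ± 0.30, and the first turned to -0.078 when arrays were scaled to the same median. Acvrl1, the receptor that Lrg1 favours, ranged from 1162.2 to 2837.6 in control and from 767.2 to 3794.7 in exposed cells.

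Tgfbr1, the other type I receptor, was at 407.6 to 874.6 in control, 716.4 to 2807.0 in tmTNF and 414.4 to 577.6 in soluble TNF cells. It was 1.05 ± 0.37 (SE, log2) above control with tmTNF and 0.34 ± 0.37 below with soluble TNF, neither past the threshold (limma, adjusted p = 0.486 and 0.739). Smad6, an inhibitor of BMP signalling, was at 116.6 to 230.6 in control, 290.9 to 1115.6 in tmTNF and 415.9 to 793.2 in soluble TNF cells, so all exposed arrays lay above all controls. Its log2 differences of 1.48 ± 0.40 and 1.79 ± 0.40 (SE) did not pass the threshold (limma, adjusted p = 0.248 and 0.191). Tgfb2, another ligand, was at 28.4 to 93.0 in control, 84.4 to 392.9 in tmTNF and 140.7 to 490.9 in soluble TNF cells, where no array overlapped control. The share of all genes with exposed arrays above all controls is not given here. Whether the separation of Smad6 or Tgfb2 is unusual therefore cannot be told. Tgfb1 and Tgfbr2, the type II receptor, overlapped between all groups. Smad1, the signal carrier downstream of Acvrl1, was at 1137.5 to 6304.3 in control and 1319.5 to 5727.8 in exposed cells. Its brightest array was control 2, as for Lrg1 and Tgfbr2. The brightest array was control 4 for Eng, tmTNF 1 for Acvrl1 and Tgfb1, and tmTNF 2 for Tgfbr1.

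The interleukin 6 and STAT3 list had 11 of 16 genes measured and 0 past the threshold in either exposure (limma), with 0 and 1 at an unadjusted p under 0.05, against 7.56% and 12.7% of all genes. Its median log2 difference was 0.35 for tmTNF and -0.38 for soluble TNF. With 1 array left out it was 0.17 to 0.97 and -0.48 to 0.06, so the sign for soluble TNF was not stable. Il6 itself was at 6033.4, 42.9, 1619.5 and 231.0 in control. With tmTNF it was 1932.6, 3251.4, 2200.0 and 2192.1, and with soluble TNF 373.6, 77.8, 948.9 and 546.1. On control arrays 1 to 4 Lrg1 was at 157.2, 1491.8, 617.4 and 125.5. A link between Il6 and Lrg1 was not tested. Stat3, the transcription factor, was at 1922.6 to 3801.2 in control and 1073.9 to 3515.1 in exposed cells. Il6st, the shared receptor subunit gp130, was at 1877.8 to 5331.6 in control and 1753.6 to 5099.3 in exposed cells, and Socs3, a feedback inhibitor, at 308.2 to 1804.6 and 104.2 to 1876.7.

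The acute phase proteins other than Lrg1 had 5 of 22 genes measured, with 0 past the threshold in either exposure (limma) and 1 and 2 at an unadjusted p under 0.05, against 7.56% and 12.7% of all genes. Without tmTNF replicate 1, 1 passed for tmTNF. The median log2 difference was 0.57 for tmTNF, with 0 of 5 below control, and -2.45 for soluble TNF, with 5 of 5 below. With 1 array left out the medians were 0.02 to 1.85 and -2.71 to -2.02, and the soluble TNF median was -1.68 without rescaling of the arrays and -0.74 without the filter. Without the 3 arrays of lowest endothelial markers the tmTNF median turned to -0.090. Lbp, the lipopolysaccharide-binding protein, had control signals of 1647.4, 3785.7, 14926.7 and 5440.6. With tmTNF they were 3661.2, 14955.7, 2529.6 and 6367.4, and with soluble TNF 779.0, 515.6, 890.3 and 1494.4. The soluble TNF arrays lay below all controls, as in 4.44% of all genes. The difference of -2.45 ± 0.66 (SE, log2, limma, adjusted p = 0.241) did not pass the threshold. The tmTNF arrays overlapped the controls, at 0.20 ± 0.66, which turned to -0.090 without the 3 arrays of lowest endothelial markers. Lcn2, lipocalin 2, was at 30.1 to 28090.9 in control and 4.4 to 74.3 in soluble TNF cells, and its brightest arrays were control 3 and tmTNF 2, which had the lowest endothelial sums.

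**Figure D4:**
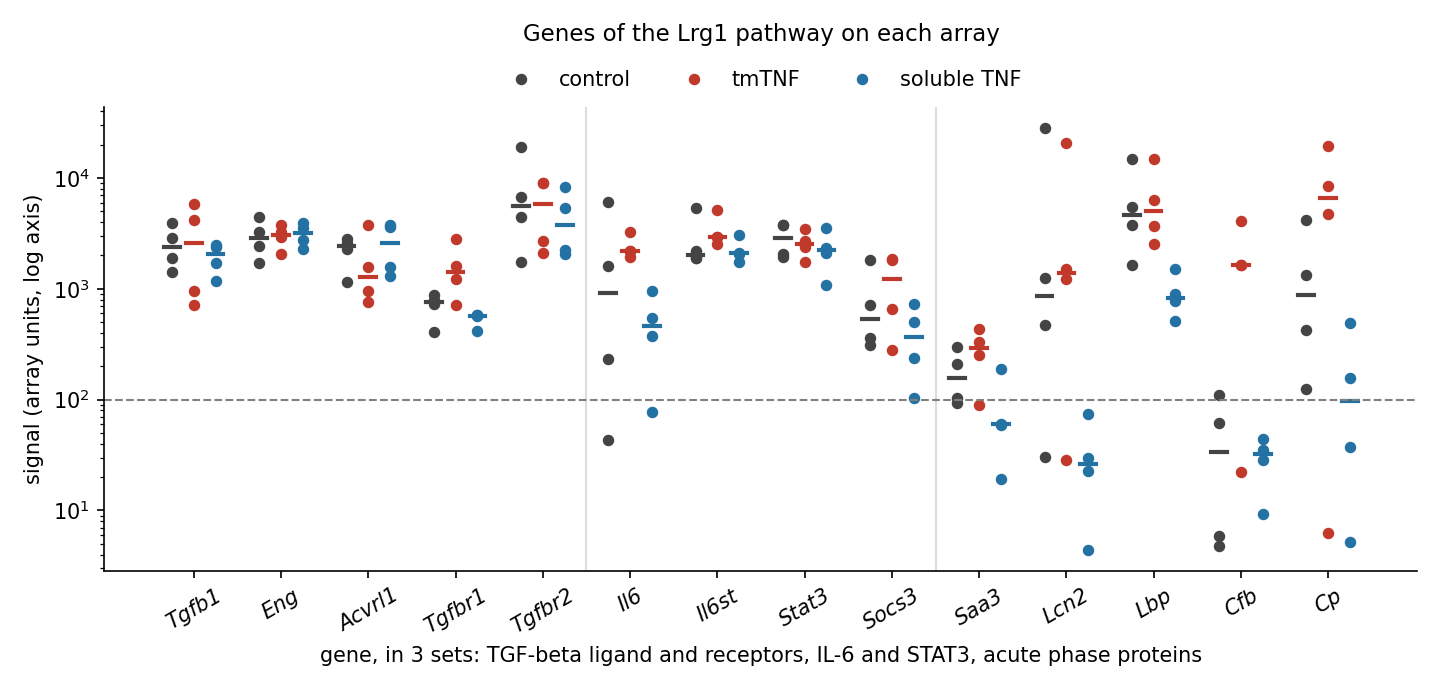
Signal on each array (log axis, array units) of TGF-beta ligand and receptor genes, interleukin 6 and STAT3 genes, and acute phase genes; points are the 4 arrays of a group, bars are medians, and the dashed line is 100. Eng stays between 1713.3 and 4407.4 on all 12 arrays, and Lbp in soluble TNF cells (515.6 to 1494.4) lies below every control.

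Of the extracellular leucine-rich repeat proteins, the structural family of Lrg1, 3 of the others on the array were measured. None passed the threshold in either exposure (limma), with 1 and 1 at an unadjusted p under 0.05, against 7.56% and 12.7% of all genes. Slit2, a guidance ligand, was 2.05 ± 0.53 (SE, log2) above control with tmTNF and 1.90 ± 0.53 above with soluble TNF. Its control signals were 113.0, 51.6, 422.1 and 322.0, its tmTNF signals 542.4, 1193.9, 659.4 and 827.0, and its soluble TNF signals 954.7, 863.3, 400.2 and 680.3. The direction was thus opposite to that of Lrg1, and 1 soluble TNF array lay inside the control range. Bgn and Podn overlapped between all groups.

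Of the other regulators of vessel growth, 16 of 18 were measured and 0 passed the threshold in either exposure (limma), with 1 and 3 at an unadjusted p under 0.05, against 7.56% and 12.7% of all genes. Without control replicate 4, 1 passed for soluble TNF. Their median log2 difference was 0.18 for tmTNF and 0.02 for soluble TNF, and 0.13 to 0.70 and -0.32 to 0.35 with 1 array left out. Thbs1, an inhibitor of vessel growth, was at 31.4 to 883.6 in control, 39.2 to 577.5 in tmTNF and 987.2 to 5608.2 in soluble TNF cells. Its soluble TNF arrays lay above all others, at 4.51 ± 0.98 (SE, log2) above control (limma, adjusted p = 0.174), and this did not pass the threshold. The share of all genes separated in this way is not given here. Kdr, the main VEGF receptor, ranged from 311.9 to 6085.6 in control and from 349.9 to 8707.5 in exposed cells.

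The genes beside Lrg1 on the chromosome were also read. Hdgfl2 was at 348.2 to 530.6 in control and 409.3 to 561.2 in exposed cells. Plin4, a lipid droplet protein, was at 6.1 to 1484.0 in control, 43.6 to 602.3 in tmTNF and 36.9 to 88.2 in soluble TNF cells, and Plin5 stayed at 91.2 or below. Sema6b was at 101.9 to 336.3 in control and 36.9 to 332.0 in exposed cells. Tnfaip8l1 and Mydgf overlapped between all groups. No neighbour of Lrg1 had its control arrays wholly above its exposed arrays, and neither did Lrg1. Of all genes 0.146% had that pattern, so its absence does not set the neighbours apart.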

How the data were processed

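Gene expression was measured on 12 one-colour Affymetrix arrays. The deposited values are linear signal intensities per probe set, made by the authors with MAS5, per the submitters' processing notes. Its version and settings are not given in the sources used here. Deposited intensities ran from 0.1 to 95672 and each array had a 2% trimmed mean of 1000. Leaving out 64 control probe sets, signals were multiplied per array so that this mean became 500, then converted to log2(signal + 16). The platform annotation gave 34945 of 45101 probe sets a single gene symbol, 932 several and 9160 none. A gene was represented by its kept probe set of highest mean log2 value. The 3 groups were fitted together with limma 3.58.1 in R 4.3.3 (two-sided, eBayes with trend). P-values were adjusted by Benjamini-Hochberg across the 10269 genes, with a threshold of 0.05, and the model was tested on simulated data. Groups follow the labels. Replicate numbers follow accession order and pair nothing. Likeness was Pearson's r of log2 values. The members, lists, motifs, markers and the rule for named genes were chosen with earlier results of these data known. That rule took the 6 genes most like each member, the widest gaps, called or brightest list members and set receptor and STAT3 genes, and not all are printed. Genes named outside it, such as L1cam, Nrg1, Slit2, Thbs1, Il6, Smad1, Smad6, Tgfb2, the other-cell markers and the listed neighbours, were chosen after their values were seen. Alternatives were other scalings, pseudocounts, filters, probe set rules, fits and samples.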

Additional observations from a re-analysis of the deposited data

Results flagged for a closer look

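Of 18 pairs of gene and group examined, 3 had 1 array far from the other 3, judged by the gap to its nearest neighbour as a share of the group's range in log2 signal. Klk8 in control replicate 1 was high, with a share of 0.955. Lrg1 in soluble TNF replicate 3 was high, with 0.968. Tgfbr1 in soluble TNF replicate 1 was low, with 0.961. Chance flags about 1 in 20 groups.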

How the results depend on the processing

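The log2 differences of Klk8 and Lrg1 kept their direction in both comparisons with control under every alternative that gave a value. Both genes were chosen as low on these same arrays, which every alternative reuses. The kept direction is therefore a description and no independent support. Lrg1 was not measured at a filter of 250. Leaving out 1 array gave -3.87 to -2.90 for Klk8 with tmTNF and -2.94 to -2.21 with soluble TNF. For Lrg1 it gave -2.92 to -1.76 with tmTNF and -4.29 to -2.82 with soluble TNF. Between the exposures it gave -1.19 to -0.43 for Klk8 and 0.56 to 1.86 for Lrg1. Leaving out 1 array moved the number of genes past the threshold from 20 to between 2 and 52 for tmTNF minus control, from 4 to between 0 and 23 for soluble TNF minus control, and from 125 to between 16 and 234 for tmTNF minus soluble TNF. It moved the genes with all controls above all exposed arrays from 15 to between 16 and 62. That number was 32 without a filter and 94 without the 3 arrays of lowest endothelial markers, and 118 without soluble TNF replicate 1 as well, both chosen after seeing the data. Without the 3 arrays the calls were 1 for tmTNF and 26 for soluble TNF. Without the 4 the limma calls were 0 for tmTNF, 0 for soluble TNF and 5 between the exposures, with 505, 1027 and 1648 of 9827 genes at an unadjusted p under 0.05, in a fit of fewer arrays. With only the groups compared in the fit, calls were 2 for soluble TNF minus control and 439 between the exposures, and with arrays scaled to the same median 239 between the exposures. Eng turned for tmTNF at the same median (-0.078), without control replicate 3 (-0.16) and without tmTNF replicate 1 (-0.056). It turned for soluble TNF without control replicate 3 (-0.098) and without the 3 or 4 arrays (-0.098 and -0.17). Lbp turned for tmTNF without control replicate 1 (-0.31), without tmTNF replicate 2 (-0.29) and without the 3 or the 4 arrays (-0.090). Over the fits without 1 array Eng reached 0.29 with tmTNF and 0.35 with soluble TNF, and Lbp 0.75 with tmTNF. The cause of these changes was not tested. The 4 arrays in a group and signals under 100 limit what can be said of exposed levels.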
